A study of Homo sapiens with 44 samples.

Results

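XBP1 and 8 other genes of the unfolded protein response were followed on 44 arrays of RNA from cell lines of human acute myeloid leukemia (AML). The members were all probe sets that name 1 of the genes XBP1, ATF6, HSPA5, HSP90B1, DNAJB9, PDIA4, HERPUD1, EDEM1 and SEL1L and no other gene, which gave 18 probe sets of 22277 and 9 genes of the 12165 that the array measures. The cells were U937, MOLM-14, HL-60 and THP-1, established human AML lines grown in culture. In each line, RNA interference with short hairpin RNAs lowered 1 of the 2 paralogous kinases GSK3A and GSK3B. The comparison asks how these stress genes differ between knockdown and control, between the kinases and between the lines.

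Every line had 5 constructs. The control was a scrambled hairpin (3 arrays per line), GSK3A was targeted by hairpins 5 and 6 and GSK3B by hairpins 1 and 2 (2 arrays per hairpin and line), as the labels number them. All cells, controls included, were infected and then selected with 1 µg/mL puromycin from 48 h after infection, and RNA was taken 48 h after that. There was no uninfected group and no hairpin-resistant rescue, so a hairpin's effect on its target and on other transcripts cannot be told apart in 1 hairpin. Replicates are labelled as biological, without a word on separate cultures or infections. If they share a culture, the p-values below measure only the spread between arrays.

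The unfolded protein response adjusts the folding capacity of the endoplasmic reticulum (ER). Its sensors are IRE1 (gene ERN1), PERK (gene EIF2AK3) and ATF6: IRE1 splices XBP1 mRNA into the form that encodes an active transcription factor, PERK slows translation and favours ATF4, and ATF6 is cut in the Golgi to release a transcription factor. HSPA5 (BiP) and HSP90B1 (GRP94) are the main ER chaperones, DNAJB9 is a BiP cochaperone, PDIA4 a disulfide isomerase, and HERPUD1, EDEM1 and SEL1L serve the degradation of misfolded ER proteins. The response is best known for its part in secretory cells such as plasma cells, and leukemic myeloid cells also use it. The array reports the summed XBP1 transcript, so spliced and unspliced XBP1 cannot be told apart, and no value here measures the activity of a sensor.

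The promoters of 4 members hold an ER stress response element, the sequence through which ATF6 and XBP1 are known to act. In the windows from 250 bases before to 50 bases after each gene's start, taken from RefSeq (GRCh38.p14) and matched by symbol for 9 of 9 members, both strands were searched for ERSE (CCAAT, then any 9 bases, then CCACG), for ERSE-II (ATTGG, then any 1 base, then CCACG) and for the core TGACGTG of the UPR element. ERSE was present in 0.0769% of 35116 windows and in XBP1, HSPA5 and HSP90B1, and ERSE-II in 0.0541% of windows and in HERPUD1. ATTGG is the reverse complement of CCAAT, so the elements share their boxes, and no member held both of them. The core TGACGTG was in 1.97% of windows and in 0 of the 9 members, which says only that these letters are not in these windows. The stretches below show the element in the 4 members that hold it, and any link to the changes described next was not tested. They run 5′ to 3′ along the gene's own strand, the capitals mark the element, and all of them lie upstream of the start.
XBP1, chr22:28800583-28800641, minus strand, ERSE from 52 to 34 bases before the start: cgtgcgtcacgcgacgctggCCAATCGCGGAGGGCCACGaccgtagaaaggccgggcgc
HSPA5, chr9:125241371-125241429, minus strand, ERSE from 66 to 48 bases before the start: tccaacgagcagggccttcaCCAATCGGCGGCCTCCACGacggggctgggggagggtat
HSP90B1, chr12:103930196-103930359, plus strand, ERSE from 194 to 176 bases before the start and, on the opposite strand, from 89 to 71 bases before it: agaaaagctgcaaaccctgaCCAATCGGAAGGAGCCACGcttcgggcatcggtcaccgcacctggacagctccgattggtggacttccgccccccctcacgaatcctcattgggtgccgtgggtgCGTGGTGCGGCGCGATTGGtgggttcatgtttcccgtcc
HERPUD1, chr16:56932005-56932055, plus strand, ERSE-II from 117 to 107 bases before the start: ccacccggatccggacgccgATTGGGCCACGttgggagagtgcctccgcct
XBP1 and PDIA4 have 2 RefSeq windows each and the other members 1.

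Lines, targets and arrays were checked first. The leukocyte gene PTPRC was between 308 and 1059 on all arrays, the granule enzyme gene MPO was between 4178 and 5827 in HL-60 and at most 122.7 elsewhere, and SPI1 (at most 35.8) and CSF3R (at most 108) were dim. Defining markers of plasma cells were near the array floor: SDC1 reached 11.98, JCHAIN 4.69, MZB1 21.4, IRF4 15.98, PRDM1 20.7 and POU2AF1 7.78. Markers of T, B, epithelial and stromal cells (CD3E, MS4A1, EPCAM and COL1A1) reached at most 29.8. With the GSK3A hairpins 2 of the 4 measured myeloid markers rose (PTPRC by 0.40 and CSF3R by 0.36 on the log2 scale), MPO fell by 0.39 and SPI1 changed by 0.01. Of all genes 21.0% were called over the lines. The summed level of the 4, in HL-60 mostly MPO, was 5774 to 6225 in HL-60 controls and 4902 to 5439.8 with GSK3A hairpins. Within HL-60 limma called 2 of the 4 higher and 0 lower, with a median change of 0.33 (9.02% of all genes called). The sum was 625 to 684 against 799.6 to 927 in U937, 707 to 738 against 738 to 911 in THP-1 and 715 to 956 against 790 to 1168 in MOLM-14. The part of these markers in the results below was not tested.

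The GSK3B probe set ran from 22.4 to 97.7 on the 16 arrays with GSK3B hairpins and from 140 to 204 on the 12 control arrays. The GSK3A probe set is dim (32.3 to 57.8 in controls, 31.3 to 46.7 with GSK3A hairpins) and fell by 0.09 ± 0.03 (SE) on the log2 scale (limma, adjusted p = 0.0176), so it is a weak check of that knockdown, which per the labels was seen on protein blots. The well positions in the labels also mattered. Arrays in plate columns 7 to 11 differed from those in columns 1 to 6 in 34.2% of genes in MOLM-14 and in 36.0% in U937, against 0.00822% in HL-60 and 0% in THP-1. Every construct of a line had arrays in both sets of columns. The values below are without the plate columns in the fit, and those with the columns as a block are given beside them for most calls that this changed, and as counts for the rest.

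In short, GSK3A hairpins went with lower XBP1, most of all in MOLM-14, while no chaperone gene among the members was called lower over the lines. HSPA5 and HSP90B1 rose with GSK3A hairpin 5 and not with hairpin 6. HERPUD1 and ATF6 were lower with GSK3B hairpin 2 and not with hairpin 1. The values behind each statement follow, as log2 changes of normalized intensity ± SE of the limma fit. A change passed where its p-value, adjusted over all 12165 genes by the Benjamini-Hochberg method, was below 0.05. In these bulk samples fewer cells of a kind and less RNA per cell cannot be told apart.

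Without knockdown, the lines already differed in 8 of the 9 members by a moderated F-test over the control arrays, a test that 67.8% of all genes passed. ATF6 was lowest in U937, at 60.6 ± 5.04 (SD, n = 3) in deposited intensity, against 175 ± 9.05 in MOLM-14, 192 ± 6.39 in HL-60 and 213 ± 6.02 in THP-1. The difference between MOLM-14 and U937 was 1.35 on the log2 scale (limma, adjusted p = 1.06e-13), and HL-60 did not differ from MOLM-14 (adjusted p = 0.334) or THP-1 (adjusted p = 0.231) beyond its spread. XBP1 stood at 663 ± 176 in MOLM-14, at 340 ± 29.9 in U937, at 309 ± 17.4 in THP-1 and at 300 ± 18.8 in HL-60. MOLM-14 was above each other line (adjusted p at most 0.000472), and the other lines did not differ from each other in XBP1. HERPUD1, whose product helps recruit the degradation machinery, fell in the order MOLM-14 (745 ± 80.6), THP-1 (591 ± 30.9), HL-60 (326 ± 19.5) and U937 (266 ± 40.3), and only the last pair of neighbours did not differ (adjusted p = 0.0853). EDEM1, a lectin that marks misfolded glycoproteins for removal, was highest in THP-1 (697 ± 40.1), with 278 ± 28.3 to 361 ± 52.8 in the other lines. HSP90B1 was lower in U937 (1875 ± 173) than in the other lines (2592 ± 33.2 to 2832 ± 224). SEL1L, the scaffold of the HRD1 ubiquitin ligase complex, was near 340 ± 22.3 in HL-60 and 326 ± 9.69 in THP-1 and lower in MOLM-14 (207 ± 6.42) and U937 (219 ± 38.3). HSPA5 (adjusted p = 0.042) and DNAJB9 (adjusted p = 0.0268) passed the F-test by less, and PDIA4 did not pass (adjusted p = 0.0562). The control arrays of MOLM-14 spread widely for XBP1, HSPA5 and PDIA4, and the third of them, in the later plate columns, stood apart from the others: XBP1 was 462 there against 744 and 784, and PDIA4 637 against 402 and 417.

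**Figure D1:**
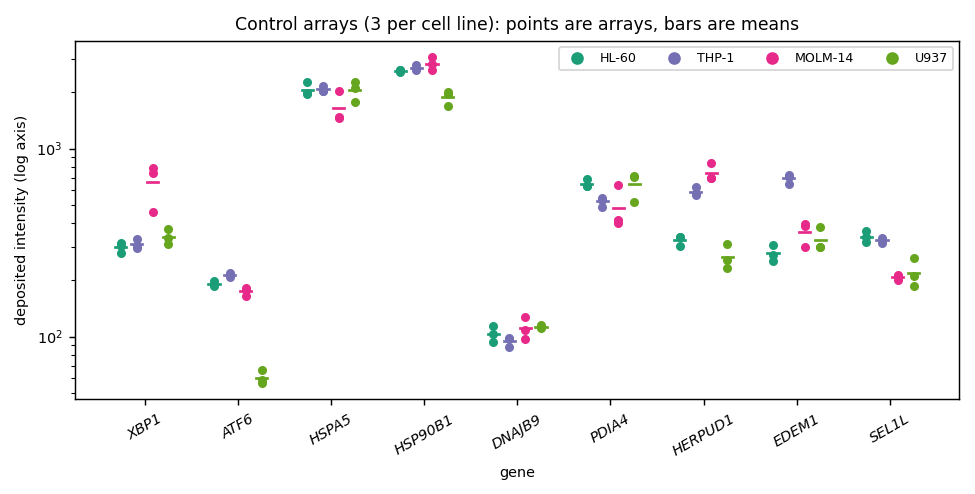
Deposited intensity of the 9 genes on the control arrays, on a log axis, with 1 point per array (3 per line) and a bar at the mean. XBP1 is highest in MOLM-14, EDEM1 in THP-1, and ATF6 lowest in U937, where it is between 56.6 and 66.3.

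XBP1 fell with the GSK3A hairpins. In MOLM-14 the control arrays read 744, 784 and 462, those with GSK3A hairpin 5 read 406 and 363, and those with hairpin 6 read 288 and 165. All 4 GSK3A arrays of MOLM-14 lay below all 3 controls, which 8.02% of genes did there. In U937 the controls read 312, 336 and 372, hairpin 5 gave 257 and 336 and hairpin 6 gave 219 and 280, so the groups overlapped by 1 array. In HL-60 the controls were 305, 317 and 280 against 282 and 295 with hairpin 5 and 236 and 242 with hairpin 6. The lower values of HL-60 thus belonged to hairpin 6. THP-1 showed no such order, with controls of 329, 296 and 303, hairpin 5 at 322 and 320 and hairpin 6 at 297 and 336. XBP1 was lower in 6 of the 8 means of a GSK3A hairpin in a line, and likewise in 6 of 8 with the GSK3B hairpins. The means of a line share its controls. Averaged over the lines, XBP1 fell with the GSK3A hairpins by 0.39 ± 0.10 (limma, adjusted p = 0.00378), which is 1.31-fold. Of the 9 members 2 passed this test, XBP1 lower and SEL1L higher, and 21.0% of all genes did. The members' median change was 0.07 and that of all genes -0.00011. In the single lines 2 of 9 members passed in MOLM-14 (15.9% of all genes), XBP1 and HSP90B1, and limma called 0 of 9 in HL-60 (9.02% of all genes; 0 members at an unadjusted p under 0.05), THP-1 (2.01%; 0 members) and U937 (6.72%; 1 member).

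The fall of XBP1 was uneven between lines. It was 1.09 ± 0.19 in MOLM-14 (limma, adjusted p = 0.00018), a 2.13-fold decrease, while the changes in the other lines did not pass: -0.18 ± 0.19 in HL-60, 0.03 ± 0.19 in THP-1 and -0.31 ± 0.19 in U937. A moderated F-test of the difference between the lines gave an adjusted p of 0.0327, with 7.83% of all genes passing. It no longer passed without MOLM-14 control replicate 1 (adjusted p = 0.128), control replicate 2 (0.147), hairpin 5 replicate 1 (0.0504), hairpin 5 replicate 2 (0.0743) or hairpin 6 replicate 2 (0.114). Without the whole MOLM-14 line XBP1 changed by -0.15 (adjusted p = 0.0609). Over the 4 lines, hairpin 6 lowered XBP1 by 0.54 ± 0.12 (adjusted p = 0.00112), whereas the change with hairpin 5, -0.23 ± 0.12, did not pass (adjusted p = 0.173). The difference between these hairpins was 0.31 ± 0.13 and did not pass either (adjusted p = 0.0945). Both passed with the plate columns as a block, hairpin 5 at -0.21 ± 0.05 (adjusted p = 0.00182) and the difference at 0.31 ± 0.06 (adjusted p = 0.000108). Within columns 1 to 6, with 1 array per hairpin and line, hairpin 5 gave -0.33.

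XBP1 in MOLM-14 also differed by plate column, where columns 7 to 11 read lower by 0.66 ± 0.07 (adjusted p = 6.32e-08), and it read higher there in U937, by 0.28 ± 0.07 (adjusted p = 0.00181). Within columns 1 to 6 the GSK3A change was -1.11 in MOLM-14, -0.42 in U937 and -0.25 in HL-60. Each hairpin had 1 array per line there, so the spread of that fit came from the control pairs alone and no p-value is given. Within columns 7 to 11, with 1 control array, the change in MOLM-14 was -0.83 and did not pass. That fit took its spread between the hairpins of a target, so it and the fit of columns 1 to 6 are not like tests. With the columns as a block the MOLM-14 change was -0.98 ± 0.09 (adjusted p = 3.82e-09; 27.9% of genes), and in U937 the change of -0.36 ± 0.09 then passed (adjusted p = 0.00512; 16% of genes). Over the lines XBP1 changed by -0.37 ± 0.04 with this block, and within columns 7 to 11 by -0.27, which did not pass. The fall of XBP1 in MOLM-14 was thus of like size with and without the block and within the first set of columns.

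GSK3B hairpins gave a less clear picture of XBP1. In MOLM-14 hairpin 1 read 530 and 323 and hairpin 2 read 760 and 366, which overlaps the controls. The mean of both hairpins passed there with the plate columns as a block (-0.33 ± 0.09, adjusted p = 0.0217). Over the lines XBP1 changed by -0.15 ± 0.10 (adjusted p = 0.579), with a 95% interval from -0.35 to 0.05. With the block the change with hairpin 1 passed (-0.16 ± 0.05, adjusted p = 0.0457). Between the targets 2 of 9 members differed in MOLM-14 (16.2% of genes passed), XBP1 by -0.65 ± 0.18 (adjusted p = 0.0106) and ATF6 by 0.21 ± 0.07 (adjusted p = 0.0389). For XBP1 over the 4 lines the difference of -0.24 ± 0.09 missed the threshold (adjusted p = 0.0571).

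**Figure D2:**
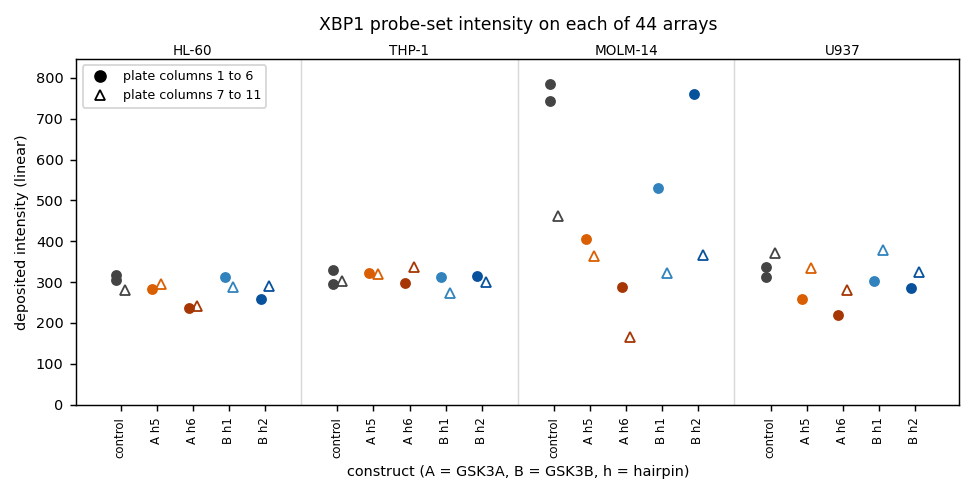
Deposited intensity of the XBP1 probe set on each of the 44 arrays by line and construct; filled circles are arrays from plate columns 1 to 6 and open triangles those from columns 7 to 11. The GSK3A arrays of MOLM-14 lie between 165 and 406, below the 3 controls (462 to 784), and the triangles of MOLM-14 lie below the circles of the same construct.

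The chaperone genes did not follow XBP1 down. HSPA5, the ER Hsp70, read 1454, 1476 and 2031 on the MOLM-14 controls, 2191 and 2480 with GSK3A hairpin 5 and 1556 and 1430 with hairpin 6. In THP-1 the controls read 2157, 2036 and 2027 against 2613 and 2692 with hairpin 5 and 1882 and 2331 with hairpin 6. In these lines both hairpin 5 arrays were above every control, and of the hairpin 6 arrays 1 of THP-1 was. For the arrays of a single hairpin, the share of all genes that lay beyond every control was not counted, here or below. U937 gave 2108, 2260 and 1762 in controls, 2474 and 2207 with hairpin 5 and 1875 and 1982 with hairpin 6. HL-60 gave 2257, 1944 and 1981 in controls, 2337 and 2196 with hairpin 5 and 1920 and 1950 with hairpin 6, and here as in U937 1 hairpin 5 array lay within the controls. Hairpin 5 raised HSPA5 by 0.30 ± 0.07 over the lines (adjusted p = 0.00113), a 1.23-fold rise, and hairpin 6 changed it by -0.05 ± 0.07 (adjusted p = 0.751). The mean of both hairpins, 0.13 ± 0.06, did not pass (adjusted p = 0.108).

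HSP90B1, the ER Hsp90, had the same pattern. Its MOLM-14 arrays read 2623, 2804 and 3068 in controls, 3422 and 4060 with hairpin 5 and 2811 and 2937 with hairpin 6. Those of THP-1 read 2606, 2672 and 2772 in controls, 3226 and 3072 with hairpin 5 and 2719 and 2849 with hairpin 6. The hairpin 5 arrays again stood above all controls of these lines. In U937 the controls were 1957, 1992 and 1677, hairpin 5 gave 2110 and 2152, and hairpin 6 gave 1546 and 1773. In HL-60 the controls read 2554 to 2614, hairpin 5 gave 2618 and 2632, just above them, and hairpin 6 gave 2348 and 2317. Over the lines hairpin 5 raised HSP90B1 by 0.21 ± 0.04 (adjusted p = 0.000169) and hairpin 6 changed it by -0.04 ± 0.04 (adjusted p = 0.598). In MOLM-14 the mean of both GSK3A hairpins passed, at 0.26 ± 0.07 (adjusted p = 0.00551), but not without control replicate 1 (0.21, adjusted p = 0.0634).

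With hairpin 5, 4 of the 9 members passed over the lines, all higher, against 22.1% of all genes (11.5% in this direction): HSPA5, HSP90B1, SEL1L and DNAJB9. DNAJB9, an ER J-domain cochaperone, rose by 0.14 ± 0.05 (adjusted p = 0.0334), a call that leaving out 1 array ended in 9 of 44 fits (adjusted p up to 0.143). Its rise was 0.37 ± 0.10 in MOLM-14 (adjusted p = 0.00673; 17.3% of genes passed), where hairpin 5 read 132 and 159 against controls of 109, 97 and 128. Leaving MOLM-14 out gave 0.07 for DNAJB9 (adjusted p = 0.335), and the call was also lost without THP-1 (0.0527) or U937 (0.12). In U937 all 4 GSK3A arrays (122 to 136) lay above the controls (111 to 116), as 5.23% of genes did there, and the change of 0.16 ± 0.08 did not pass (adjusted p = 0.315). PDIA4 changed with hairpin 5 by 0.22 ± 0.09 and did not pass (adjusted p = 0.0749). In columns 7 to 11 PDIA4 was higher by 0.47 ± 0.05 in MOLM-14 and lower by 0.31 ± 0.05 in U937. With the plate columns as a block its hairpin 5 change of 0.22 ± 0.03 passed (adjusted p = 2.02e-05; 33.4% of genes). In all, 7 of 9 members passed with that block, 6 higher and XBP1 lower.

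Among the genes of ER-associated degradation, SEL1L rose with the GSK3A hairpins by 0.16 ± 0.05 over the lines (adjusted p = 0.027). The rise was 0.22 ± 0.06 with hairpin 5 (adjusted p = 0.00989) and 0.10 ± 0.06 with hairpin 6 (adjusted p = 0.337). The call over both hairpins was lost without HL-60 control replicate 2 (adjusted p = 0.0537), MOLM-14 hairpin 6 replicate 1 (0.0535), U937 control replicate 2 (0.0688), U937 hairpin 5 replicate 2 (0.0554) or U937 hairpin 6 replicate 2 (0.0557), and that with hairpin 5 without U937 hairpin 5 replicate 2 (0.0511). Over both hairpins it was also lost without HL-60 (0.141) or MOLM-14 (0.156) and with each construct of a line as a random block (0.102). The call with hairpin 5 was also lost without HL-60 (0.0926) or MOLM-14 (0.108). Within columns 7 to 11, with 1 control array per line, SEL1L did not pass over both hairpins. The SEL1L rise with hairpin 6 passed with the plate columns as a block (0.09 ± 0.03, adjusted p = 0.0454; 29.0% of genes). EDEM1 fell with hairpin 6 by 0.36 ± 0.10 (adjusted p = 0.0169) and changed by 0.00 ± 0.10 with hairpin 5 (adjusted p = 0.993). Its MOLM-14 arrays read 395, 389 and 301 in controls, 342 and 353 with hairpin 5 and 257 and 181 with hairpin 6, where the change was -0.67 ± 0.21 (adjusted p = 0.0382; 9.94% of genes passed). The EDEM1 call over the lines was lost without MOLM-14 hairpin 6 replicate 2 (adjusted p = 0.0628) or U937 hairpin 6 replicate 1 (0.0626), and without HL-60 (0.103) or MOLM-14 (0.0527). EDEM1 and XBP1 were thus the 2 members that hairpin 6 lowered, and 16.7% of all genes passed with that hairpin (7.88% in this direction). HERPUD1 changed with hairpin 5 by 0.22 ± 0.08 (adjusted p = 0.0539) and with hairpin 6 by -0.01 ± 0.08 (adjusted p = 0.971), and with the block the hairpin 5 change passed (0.20 ± 0.04, adjusted p = 0.00113). ATF6 changed by 0.09 ± 0.05 (adjusted p = 0.165) and -0.08 ± 0.05 (adjusted p = 0.302).

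**Figure D3:**
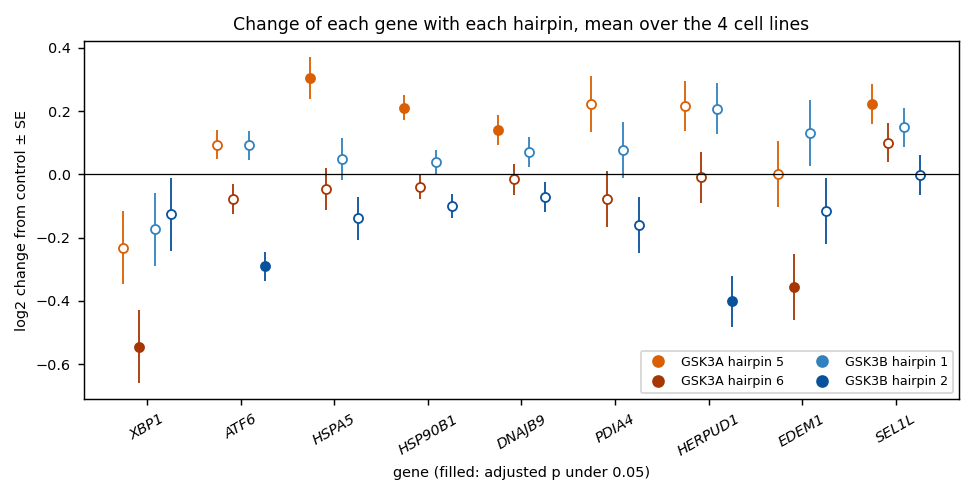
Log2 change from control (± SE) of each gene with each of the 4 hairpins, averaged over the 4 cell lines; filled points passed an adjusted p of 0.05. Hairpin 5 of GSK3A (orange) has 4 filled points above 0, hairpin 6 (brown) lies lowest for XBP1 at -0.54, and hairpin 2 of GSK3B (dark blue) lies lowest for HERPUD1 at -0.40.

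With both GSK3B hairpins averaged, 0 of the 9 members passed over the lines by limma, against 3.32% of all genes, and 1 member had an unadjusted p under 0.05. The hairpins parted, however. With hairpin 2, 2 of 9 members passed, HERPUD1 and ATF6, both lower, against 6.27% of all genes (2.94% in this direction), and all 9 members had a negative change (median -0.13, against 0.01 for all genes). With hairpin 1, 0 of 9 passed, by limma, with 2 at an unadjusted p under 0.05, against 4.64% of all genes, and 8 of 9 changes were positive (median 0.08). Hairpin 2 gave 5 members, all lower, with the plate columns as a block (15.9% of genes), the further ones being PDIA4 (-0.17 ± 0.03, adjusted p = 0.00137), HSPA5 (-0.15 ± 0.05, adjusted p = 0.0279) and HSP90B1 (-0.11 ± 0.03, adjusted p = 0.00775). Without MOLM-14, HSPA5 (-0.22, adjusted p = 0.00982) and HSP90B1 (-0.14, adjusted p = 0.0102) also passed with hairpin 2. With hairpin 1 the block gave 3 members (12.9% of genes), HERPUD1 (0.19 ± 0.04, adjusted p = 0.00553) and SEL1L (0.14 ± 0.03, adjusted p = 0.00652) higher and XBP1 lower. In the single lines limma called 0 of 9 members with the mean of the GSK3B hairpins in HL-60 (0.986% of genes), THP-1 (0.0493%), MOLM-14 (1.44%) and U937 (0.214%), with 0, 0, 2 and 1 members at an unadjusted p under 0.05. With the block 2 passed in MOLM-14 (6.77% of genes), XBP1 lower and SEL1L higher (0.27 ± 0.06, adjusted p = 0.00436).

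HERPUD1 with hairpin 2 read 236 and 207 in HL-60 against controls of 337, 338 and 304, and 502 and 420 in MOLM-14 against 701, 697 and 838. Hairpin 1 gave 383 and 361 in HL-60 and 1087 and 929 in MOLM-14. In both lines hairpin 2 lay below every control and hairpin 1 above every control. THP-1 had the same order in a narrower range, with hairpin 2 at 534 and 542, controls at 569, 577 and 626 and hairpin 1 at 645 and 666. In U937 the groups overlapped (hairpin 2 at 172 and 248, controls at 231, 256 and 310, hairpin 1 at 242 and 304). The share of all genes that lay beyond every control with 1 hairpin was not counted. Hairpin 2 lowered HERPUD1 by 0.40 ± 0.08 (adjusted p = 0.00165), a 1.32-fold decrease. The call held without any 1 array, and was lost without HL-60 (-0.36, adjusted p = 0.0684) or MOLM-14 (-0.32, adjusted p = 0.0584).

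ATF6 with GSK3B hairpin 2 was below every control in all 4 lines. It read 143 and 140 in HL-60 (controls 186 to 199), 182 and 183 in THP-1 (controls 207 to 219), 142 and 136 in MOLM-14 (controls 164 to 181) and 42.0 and 52.6 in U937 (controls 56.6 to 66.3). With hairpin 1 it read 210 and 210, 214 and 215, 193 and 181, and 60.8 and 78.9 in the same lines. How many of all genes lay below every control with hairpin 2 was not counted. Hairpin 2 lowered ATF6 by 0.29 ± 0.05 (adjusted p = 0.000101), and by 0.39 ± 0.09 within HL-60 (adjusted p = 0.0138; 2.68% of genes passed). This rests on the brighter of 2 ATF6 probe sets. The dimmer one changed by -0.05 ± 0.06 with hairpin 2 (adjusted p = 0.815).

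**Figure D4:**
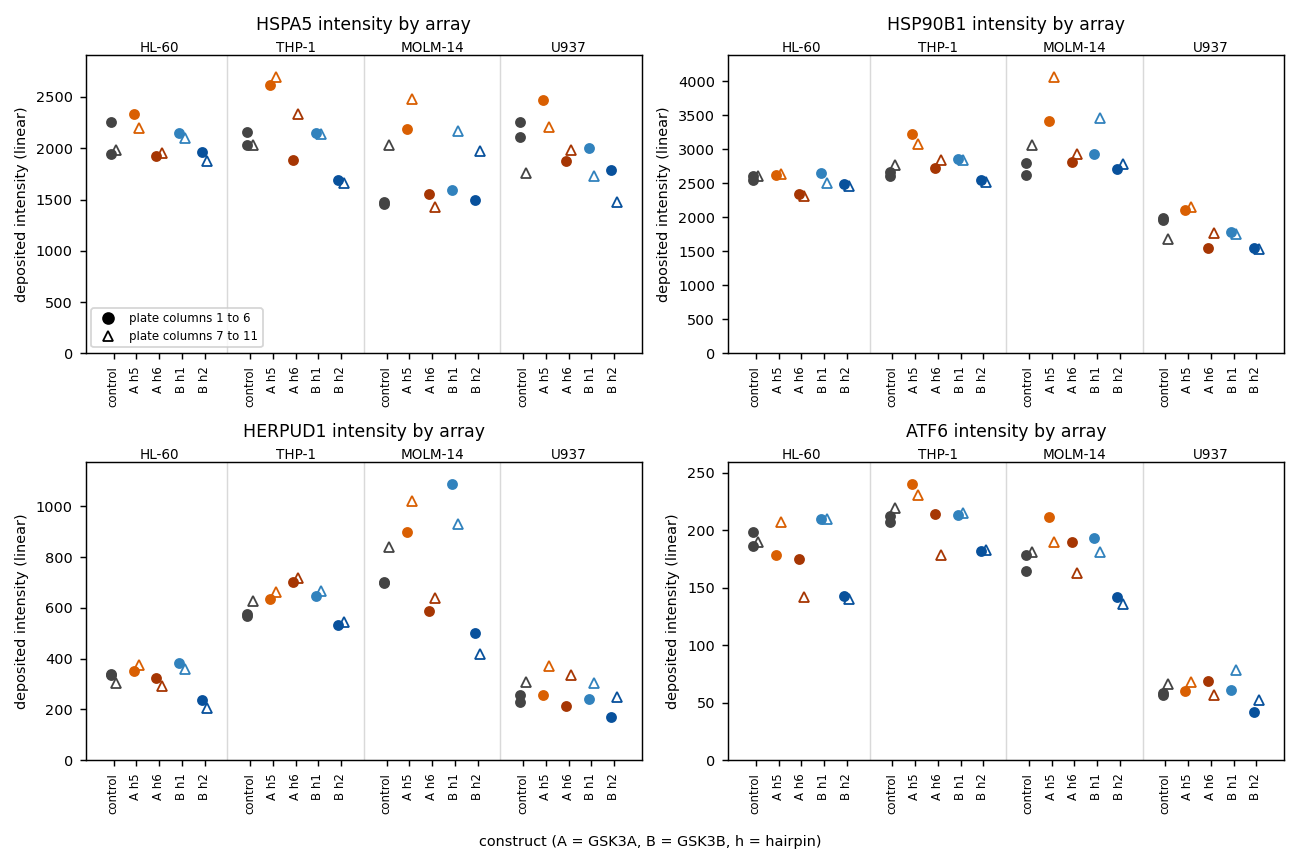
Deposited intensity of HSPA5, HSP90B1, HERPUD1 and ATF6 on each of the 44 arrays; filled circles are plate columns 1 to 6 and open triangles columns 7 to 11. Hairpin 5 of GSK3A is high for HSPA5 and HSP90B1 in MOLM-14 and THP-1, and hairpin 2 of GSK3B is low for HERPUD1 and ATF6, with ATF6 at 42.0 to 66.3 in U937 with hairpin 2 and control.

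The hairpins of a target can be compared with no control array. Averaged over the lines, GSK3A hairpin 5 stood above hairpin 6 for all 9 members, with a median difference of 0.25 against -0.0022 for all genes. Of the 9, 6 passed, against 16.8% of all genes (8.61% in this direction): EDEM1 at 0.36 ± 0.11 (adjusted p = 0.0288), HSPA5 at 0.35 ± 0.07 (adjusted p = 0.000928), PDIA4 at 0.30 ± 0.10 (adjusted p = 0.0324), HSP90B1 at 0.25 ± 0.04 (adjusted p = 8.49e-05), ATF6 at 0.17 ± 0.05 (adjusted p = 0.0171) and DNAJB9 at 0.16 ± 0.05 (adjusted p = 0.0382). The HSPA5 and HSP90B1 calls held without any 1 array. Leaving out 1 array ended the others in some fits, with adjusted p up to 0.0928 for EDEM1 (7 of 44 fits), 0.0956 for PDIA4 (10 fits), 0.0688 for ATF6 (6 fits) and 0.135 for DNAJB9 (10 fits). By line, hairpin 5 stood above hairpin 6 for 9 members in MOLM-14 (median 0.60), 9 in HL-60 (0.21) and 8 in U937 (0.24). In THP-1 it did so for only 5 (median 0.01). Within MOLM-14 4 members passed (HSPA5 at 0.60, DNAJB9 at 0.60, HERPUD1 at 0.61 and HSP90B1 at 0.33; 9.85% of genes passed), and over the other lines, without MOLM-14, 3 members passed. Without HL-60 2 members passed, HSPA5 and HSP90B1, and the shares of all genes without a line are not given here. The DNAJB9 difference without MOLM-14 was 0.01 (adjusted p = 0.949).

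GSK3B hairpin 1 stood above hairpin 2 for 8 of 9 members, XBP1 being the exception at -0.05 ± 0.13. HERPUD1 differed by 0.61 ± 0.09 (adjusted p = 1.68e-05), a 1.52-fold difference, ATF6 by 0.38 ± 0.05 (adjusted p = 4.35e-06) and HSP90B1 by 0.14 ± 0.04 (adjusted p = 0.0335), so 3 of 9 passed, against 11% of all genes (5.27% in this direction). The HSP90B1 call was lost in 12 of 44 fits without 1 array (adjusted p up to 0.117). ATF6 passed within HL-60 (0.51 ± 0.10, adjusted p = 0.0014; 7.55% of genes), MOLM-14 (0.38 ± 0.10, adjusted p = 0.0235; 4.78%) and U937 (0.43 ± 0.10, adjusted p = 0.0292; 0.830%), and HERPUD1 within HL-60 (0.69 ± 0.18, adjusted p = 0.0128) and MOLM-14 (1.11 ± 0.18, adjusted p = 0.000154).

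**Figure D5:**
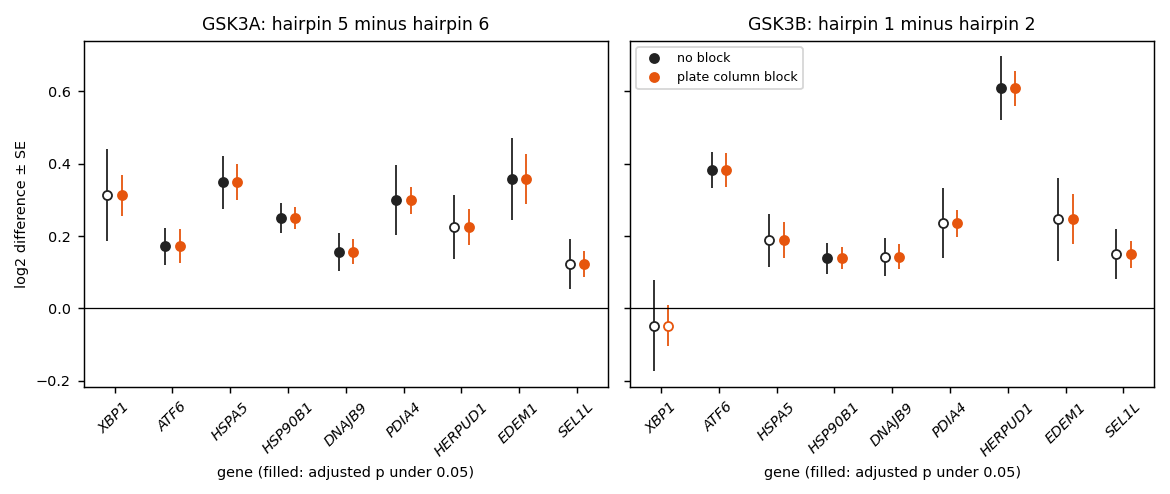
Log2 difference (± SE) between the hairpins of 1 target for each gene over the 4 lines, in the fit without a block (black) and with the plate columns as a block (orange); filled points passed an adjusted p of 0.05. The differences lie above 0 for all 9 genes on the left and for all but XBP1 on the right, where HERPUD1 is highest at 0.61. By design the block changes only their SE, not their size.

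Between the targets, 4 of 9 members passed over the lines, all higher with GSK3A than with GSK3B hairpins, where 21.8% of all genes passed (10.7% in this direction). HERPUD1 differed by 0.20 ± 0.06 (adjusted p = 0.0195), HSPA5 by 0.17 ± 0.05 (adjusted p = 0.0146), HSP90B1 by 0.12 ± 0.03 (adjusted p = 0.00538) and ATF6 by 0.11 ± 0.04 (adjusted p = 0.029). These means join hairpins that differ from each other as described, so that the HERPUD1 and ATF6 differences contain the low values of GSK3B hairpin 2. The ATF6 call was lost in 10 of 44 fits without 1 array (adjusted p up to 0.0669), with median scaling (0.0537) and with the mean of its probe sets (0.168). The ATF6 call was also lost without THP-1 (0.102) or MOLM-14 (0.308), the HERPUD1 call without HL-60 (0.115), THP-1 (0.0799) or MOLM-14 (0.0506), and the HSPA5 call without THP-1 (0.176) or U937 (0.13). With each construct of a line as a random block, none of the 4 passed (adjusted p = 0.131 for HSPA5, 0.116 for HSP90B1, 0.298 for HERPUD1 and 0.343 for ATF6).

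With the plate columns as a block the spread was smaller and more members passed, and more genes did. For the GSK3A hairpins 5 of 9 passed (33.2% of all genes): XBP1 and EDEM1 (-0.17 ± 0.05, adjusted p = 0.0138) lower, and SEL1L, HSPA5 (0.12 ± 0.04, adjusted p = 0.0141) and HSP90B1 (0.08 ± 0.02, adjusted p = 0.0126) higher. For the GSK3B hairpins 1 of 9 passed (10.1% of all genes), HERPUD1 at -0.12 ± 0.04 (adjusted p = 0.0486). Between the targets all 9 passed (33.8% of all genes), 7 higher with GSK3A and XBP1 and EDEM1 lower. Between the GSK3A hairpins all 9 passed (29.4%), and between the GSK3B hairpins 8 of 9 (22.5%). Each hairpin had 1 array per line in each set of columns, so differences between hairpins or targets keep their size with the block by design. Controls were not split evenly over the columns, so changes from control could move. The members' median change with the GSK3A hairpins was 0.073 without the block and 0.066 with it.

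The other probe sets of the members were compared with the ones used. All 4 HSP90B1 probe sets rose with GSK3A hairpin 5, by 0.16 to 0.32, and passed when all single-gene probe sets were tested. The dimmer PDIA4 set passed with hairpin 5 (0.24 ± 0.08, adjusted p = 0.0442) where the brighter one did not. The dimmer DNAJB9 set changed by the same 0.14 ± 0.07 without passing (adjusted p = 0.194). For SEL1L, the 3 dimmer sets changed by 0.02 to 0.20 with hairpin 5 and none passed. XBP1, HSPA5, HERPUD1 and EDEM1 have 1 probe set each.

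The wider response was read from 5 gene lists, none of which shares a gene with the 9 members. Among 7 sensors and the proteases that cut ATF6, 1 rose with the GSK3A hairpins, CREB3, an ER-bound relative of ATF6 (0.18 ± 0.05, adjusted p = 0.00398), against 21.0% of all genes. EIF2AK3 changed by 0.14 ± 0.06 over both hairpins (adjusted p = 0.113) and rose with hairpin 5 alone (0.34 ± 0.07, adjusted p = 0.000767), and ERN1 changed by -0.02 ± 0.03. None of the 7 passed with the GSK3B hairpins (3.32% of all genes), and none had an unadjusted p under 0.05 there.

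Of 17 further ER chaperone and folding genes measured, 1 rose and 1 fell with the GSK3A hairpins, against 21.0% of all genes: HSPA13, an Hsp70 relative of the ER, by 0.39 ± 0.08 (adjusted p = 0.000427) and ERO1A, an oxidase of disulfide formation, by -0.19 ± 0.04 (adjusted p = 0.00222). CALR, calreticulin, changed by -0.23 ± 0.09 (adjusted p = 0.065). Hairpin 5 gave 8 higher and 1 lower (22.1% of all genes passed), with a list median of 0.14, and hairpin 6 gave 1 higher and 3 lower (16.7% of all genes), with a median of -0.09. The difference between these hairpins passed for 9 of the 17, all higher with hairpin 5, against 16.8% of all genes (8.61% in this direction). With the GSK3B hairpins 2 of 17 passed (3.32% of all genes): PDIA3, the isomerase that works with calreticulin, fell by 0.24 ± 0.04 (adjusted p = 0.00017), and CANX, calnexin, fell by 0.23 ± 0.04 (adjusted p = 0.00113). DNAJC10 changed by -0.12 ± 0.05 (adjusted p = 0.23).

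Of 11 degradation genes measured, 3 rose with the GSK3A hairpins, EDEM2 by 0.25 ± 0.06 (adjusted p = 0.0034), DERL2 by 0.17 ± 0.04 (adjusted p = 0.00568) and FAF2 by 0.13 ± 0.03 (adjusted p = 0.00158), and EDEM3, a mannosidase like EDEM1 and EDEM2, fell by 0.26 ± 0.06 (adjusted p = 0.00136). These 4 of 11 stand against 21.0% of all genes. DERL2 and FAF2 are parts of the machinery that moves proteins out of the ER and to the p97 ATPase. With the GSK3B hairpins the ubiquitin-conjugating enzyme gene UBE2J1 fell by 0.32 ± 0.06 (adjusted p = 0.00111), 1 of 11 against 3.32% of all genes. The 3 EDEM genes thus did not move together: EDEM2 rose, EDEM3 fell, and EDEM1 changed by -0.18 ± 0.09 over both GSK3A hairpins (adjusted p = 0.17), which passed with the plate columns as a block.

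Of 16 translocation and transport genes, 1 rose and 2 fell with the GSK3A hairpins, against 21.0% of all genes. SEC24D, a coat subunit of vesicles that leave the ER, rose by 0.33 ± 0.06 (adjusted p = 0.000103), the translocon-associated SSR1 fell by 0.23 ± 0.03 (adjusted p = 1.08e-05) and the signal recognition receptor gene SRPRA fell by 0.12 ± 0.03 (adjusted p = 0.00183). With the GSK3B hairpins SRPRA rose by 0.17 ± 0.03 (adjusted p = 0.000557) and SSR1 fell by 0.13 ± 0.03 (adjusted p = 0.0232), 2 of 16 against 3.32% of all genes.

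Of 14 genes of the PERK and ATF4 branch, 0 passed over the lines with the GSK3A hairpins by limma (1 had an unadjusted p under 0.05) and 0 with the GSK3B hairpins (0 at an unadjusted p under 0.05). ATF4 changed by 0.03 ± 0.06 with either target's hairpins, DDIT3 (CHOP) by 0.02 ± 0.11 with GSK3A and 0.07 ± 0.11 with GSK3B hairpins, and the stress gene NUPR1 by 0.36 ± 0.13 with GSK3A hairpins (adjusted p = 0.0516). These shares were 21.0% and 3.32% for all genes. Hairpin 5 raised 4 of the 14 (22.1% of all genes passed), and 0 passed with hairpin 6 by limma (1 at an unadjusted p under 0.05; 16.7% of all genes). The lines differed in the list median with the GSK3A hairpins, which was 0.31 in THP-1, 0.08 in U937, 0.02 in HL-60 and -0.15 in MOLM-14. In MOLM-14 2 of the 14 passed, both lower, and 4 had an unadjusted p under 0.05 (15.9% of all genes passed there).

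The members formed more than 1 group when their arrays were set against each other. Correlations were taken over the 44 arrays after each line's mean was subtracted, and the arrays share plate columns and hairpins, so they are a description only. HSPA5 went with PDIA4 (r = 0.86) and HSP90B1 (r = 0.82), ATF6 with HERPUD1 (r = 0.69) and XBP1 with EDEM1 (r = 0.70). XBP1 did not go with HSPA5 (r = -0.20). After the mean of each set of plate columns was subtracted too, these values were 0.85, 0.81, 0.70, 0.58 and 0.09. The 5 genes most like HSPA5 over all 12165 were PPIB (r = 0.86), PDIA4 (r = 0.86), MANF (r = 0.84), HYOU1 (r = 0.83) and HSP90B1 (r = 0.82), all of which encode ER folding proteins or ER stress-induced secreted factors. The 5 most like XBP1 were DUSP1 (r = 0.81), SLC3A2 (r = 0.78), PSAT1 (r = 0.77), CTH (r = 0.77) and JUNB (r = 0.76), which encode a phosphatase of MAP kinases, an amino acid transporter chain, enzymes of serine and cysteine synthesis and an AP-1 subunit. With the plate columns subtracted these 5 were between 0.62 and 0.71.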

How the data were processed

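The authors deposited 1 table of linear probe-set intensity per array, and per the submitters' processing notes RMA and MAS5 were used. The sources used here do not say which of them made the table, nor in what version. All 44 columns matched a labelled sample. Intensities were taken as log2(intensity + 16), which understates changes of dim genes, and quantile-normalized over all 22277 probe sets. Of these 19724 name 1 gene, 568 several and 1923 none, and 62 are controls. The brightest probe set of each gene was used (12165 genes). A mean for each of 20 groups was estimated in limma 3.58.1 under R 4.3.3 (24 residual degrees of freedom), with two-sided tests and Benjamini-Hochberg adjustment over all genes. The fit was checked on simulated data. The number of arrays limits the precision. Alternatives covered normalization, pseudocount, dim genes, probe-set means, blocks, plate columns, single arrays and lines. Genes beyond the 9 members were named by rule: up to 3 of each list, those lowest in adjusted p for a target, plus ERN1, EIF2AK3, ATF4 and DDIT3, and the 5 genes most correlated with XBP1 and HSPA5. The members and lists were chosen with earlier results of these data known. Promoter windows came from RefSeq (GRCh38.p14). Same-numbered replicates were not paired by the labels, and their deviations did not go together between control and hairpin arrays (correlations from -0.06 to 0.11), whereas those of arrays in the same plate columns did in MOLM-14 and U937 (0.59 to 0.82).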

Additional observations from a re-analysis of the deposited data

Results flagged for a closer look

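The change of XBP1 with the GSK3A hairpins differed between the cell lines by a moderated F-test (limma, adjusted p = 0.0327), which 7.83% of all genes passed. It was -1.09 in MOLM-14, against -0.31 in U937, -0.18 in HL-60 and 0.03 in THP-1. With the plate columns as a block the adjusted p of this F-test was 7.22e-06. The F-test was also run within columns 1 to 6, where each hairpin had 1 array per line, so its p-value is not given. Both of these settings were chosen after seeing the data.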

How the results depend on the processing

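Counts of the 9 members that passed are given below for the settings that moved them by over 1.5 times. The constructs share replicate numbers. Same-numbered hairpin arrays deviated together in MOLM-14 and U937 (correlations from 0.561 to 0.8), where they also share a set of plate columns, but control and hairpin arrays did not (-0.06 to 0.11), so the numbers were not taken as pairs. A replicate block moved the count from 2 to 5 for GSK3A (28.8% of all genes), from 4 to 7 between the targets (29.8%) and from 4 to 7 for hairpin 5 (29.3%). It moved the count from 0 to 2 for hairpin 1 (9.10%) and from 3 to 6 between the GSK3B hairpins (18.0%). No called change turned. The plate column block gave 5 for GSK3A (33.2% of all genes), 1 for GSK3B (10.1%), 9 between the targets (33.8%) and 7 for hairpin 5 (33.4%). It gave 3 for hairpin 1 (12.9%), 5 for hairpin 2 (15.9%) and 8 between the GSK3B hairpins (22.5%). Within columns 1 to 6 some counts moved as well. Each hairpin had 1 array per line there, so the spread came from the control pairs alone and those counts are not given. Within columns 7 to 11, with 1 array per group, single hairpins could not be tested. A fit of 1 mean per line and target took its spread between the hairpins of a target, so its counts are not given either. Fewer members and fewer of all genes passed there for GSK3A and between the targets than over all columns. The random block of line and construct was fitted with 1 mean per line and target. It gave 1 for GSK3A (10.6% of all genes) and 0 between the targets (12.6%). Without HL-60 the counts were 1 for hairpin 6, 1 for hairpin 2 and 2 between the GSK3A hairpins. Without THP-1 the count between the targets was 2. Without MOLM-14 they were 0 for GSK3A, 2 between the targets, 2 for hairpin 5, 1 for hairpin 6 and 3 between the GSK3A hairpins. Without U937 hairpin 1 gave 1. Leaving out each array gave 1 to 4 for GSK3A (1 without HL-60 control replicate 2, U937 hairpin 5 replicate 2 or U937 hairpin 6 replicate 2, and 4 without MOLM-14 control replicate 3), 3 to 6 between the targets, 2 to 6 for hairpin 5, 1 to 2 for hairpin 6, 3 to 7 between the GSK3A hairpins and 2 to 6 between the GSK3B hairpins. For the fits without a line or an array the shares of all genes are not given here. The cause of all these moves was not tested. No called change of a member turned its direction under any setting. Other normalizations, pseudocounts, probe-set means and a filter on dim genes left these counts within 1.5 times. Probe sets near the array floor limit what could be read of dim genes such as GSK3A.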
